A study of Mus musculus with 24 samples.

Results

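The Fos and Jun genes were followed as 7 transcripts, Fos, Fosb, Fosl1, Fosl2, Jun, Junb and Jund, in the hippocampus of mouse pups after hypoxia-ischemia on postnatal day 10. They were taken by name from a table of 22314 named genes, all 7 were found, and all 7 passed the filter on low values that left 18364 genes for testing. There were 24 RNA libraries, 2 for each combination of genotype (wild type, WT; labelled Neil1-KO; Neil2-KO), side (contralateral, or ipsilateral to the insult) and time (3 h or 6 h). All of these groups, WT included, had undergone the insult, and no uninjured animals were among the groups. Libraries of the sides with the same genotype, time and replicate number were taken as 1 animal, which the labels do not state outright, so there were 12 animals. For strain, sex and how the knockouts were made, no source used here gives an answer.

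AP-1 is a family of transcription factors that bind DNA as pairs joined through a leucine zipper. Fos proteins must pair with a Jun protein to bind, whereas Jun proteins can also pair with each other, and the usual binding site reads TGACTCA. In neurons Fos, Fosb, Jun and Junb are immediate early genes: synaptic activity, calcium entry, growth factors or cell stress switch them on within minutes, and their transcripts are short-lived. Jund is expressed more steadily, and Fosl1 and Fosl2, which encode the Fra proteins, are generally slower to respond.

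The sequence just before the start of transcription is shown for 4 immediate early members, Fos, Fosb, Junb and Jun, and, for contrast, for Fosl2, which was called in none of the comparisons of the sides described below. The sequences come from RefSeq for build GRCm38.p6, which differs from the build of the counts, and 6 of the 7 members matched an entry, all but Fosl1. Each run holds the 250 bases before the start, read 5′ to 3′ on the strand of the gene, with TGACG, TGACATCA and TATAAA in capitals. The windows are Fos at chr12:85473640-85473889 (plus strand), Fosb at chr7:19310046-19310295 (minus strand), Junb at chr8:84978749-84978998 (minus strand), Jun at chr4:95052223-95052472 (minus strand) and Fosl2 at chr5:32136222-32136471 (plus strand).
Fos: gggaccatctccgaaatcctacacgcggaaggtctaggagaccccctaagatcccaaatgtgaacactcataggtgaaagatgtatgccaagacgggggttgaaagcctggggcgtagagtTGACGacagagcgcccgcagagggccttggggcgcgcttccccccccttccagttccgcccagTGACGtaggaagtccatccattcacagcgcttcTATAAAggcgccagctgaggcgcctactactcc
Fosb: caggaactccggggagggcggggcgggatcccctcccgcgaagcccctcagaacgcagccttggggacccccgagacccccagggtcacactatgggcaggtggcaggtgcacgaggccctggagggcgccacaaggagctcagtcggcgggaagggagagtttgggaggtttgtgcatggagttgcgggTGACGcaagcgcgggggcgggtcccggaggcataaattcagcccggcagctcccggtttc
Junb: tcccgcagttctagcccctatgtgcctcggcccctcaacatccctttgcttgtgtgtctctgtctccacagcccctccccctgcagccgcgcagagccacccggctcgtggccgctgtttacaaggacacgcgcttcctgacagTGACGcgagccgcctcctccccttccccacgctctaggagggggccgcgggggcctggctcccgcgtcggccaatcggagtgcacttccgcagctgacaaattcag
Jun: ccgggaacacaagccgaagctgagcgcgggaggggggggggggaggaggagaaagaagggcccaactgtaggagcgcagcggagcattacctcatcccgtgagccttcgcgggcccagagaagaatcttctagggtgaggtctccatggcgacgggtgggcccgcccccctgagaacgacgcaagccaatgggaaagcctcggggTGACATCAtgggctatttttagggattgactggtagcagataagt
Fosl2: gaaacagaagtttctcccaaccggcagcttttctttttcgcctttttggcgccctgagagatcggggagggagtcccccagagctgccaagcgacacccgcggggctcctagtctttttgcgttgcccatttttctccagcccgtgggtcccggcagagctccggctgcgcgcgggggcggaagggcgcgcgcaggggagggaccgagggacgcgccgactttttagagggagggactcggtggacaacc
Both strands were searched, and the capitals that appear are all on the strand shown. TGACG, the core of the cAMP response element, was present in 3 windows: at 129 and 66 bases before the Fos start, 60 bases before the Fosb start and 106 bases before the Junb start. Jun had no TGACG but held TGACATCA, an AP-1-like element, 45 bases before its start. TATAAA, the TATA box, was found in Fos alone, 33 bases before the start. Of 32851 RefSeq windows of the same length, 17.77% held TGACG, 2.928% held TGACATCA and 12.37% held TATAAA. The full element TGACGTCA, which contains TGACG, was in 1.546% of windows, the AP-1 site TGACTCA in 4.463% and the CArG box, the binding site of serum response factor, in 1.467%, and none of the 6 matched members held any of them within these 250 bases. The motif CCAAT, in 33.85% of windows, occurred in Jun and Junb. Neither Fosl2 nor Jund held any of these motifs in this window.

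Depth ran from 17771293 to 29252067 reads per library, and values below are the deposited read counts divided by a size factor ("normalized counts"). Neil2 lay between 0 and 3.02 normalized counts in the Neil2-KO libraries and between 15.2 and 27.8 in WT. Neil1 lay between 91.6 and 155 in the libraries labelled Neil1-KO and between 56.8 and 123 in WT, so it was not lower under that label, and all statements below concern the libraries as labelled. Which part of either gene was removed is unknown here, and reads from an intact part would check nothing. The title, not the genotype tag, set the group of the NEIL2-KO libraries, since their tag read NEIL1-KO. One library stood apart, labelled Neil1-KO ipsilateral 6 h replicate 2, which had 12.48% of its reads on lines without a gene name, the highest share, against 8.407% in the lowest library. Xist was high in 3 animals, all of them in knockout groups. The hippocampal label was checked against Prox1, Fibcd1, Wfs1, Lct and Zbtb20, whose summed level was 14430 to 20492 normalized counts contralaterally and 4320 to 10460 ipsilaterally.

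Fos had the largest log2 difference between the sides of the 7 members in each of the 6 comparisons of the sides. Contralateral Fos at 3 h stood at 4826 and 1707 normalized counts in the WT libraries, 1067 and 310 in labelled Neil1-KO, and 783 and 1527 in Neil2-KO (replicates 1 and 2). Ipsilateral Fos at 3 h stood at 21270 and 20801 in WT, 19195 and 14204 in labelled Neil1-KO, and 21433 and 17051 in Neil2-KO. At that time the lowest ipsilateral library was above the highest contralateral one, and relative to its level the contralateral side varied more between animals. By 6 h contralateral Fos had values of 387 and 178 in WT, 163 and 156 in labelled Neil1-KO, and 764 and 432 in Neil2-KO. Ipsilateral Fos at 6 h was 5983 and 4301 in WT, 4531 and 9018 in labelled Neil1-KO, and 15149 and 7570 in Neil2-KO. All 6 ipsilateral libraries again lay above all 6 contralateral ones of the same time, and only WT contralateral 3 h replicate 1 reached into the range of the ipsilateral libraries at 6 h. Ordered by their means, the 12 groups ran from WT ipsilateral 3 h (21036 ± 331, SD, n = 2) to labelled Neil1-KO contralateral 6 h (159 ± 4.72, SD, n = 2), and all 6 ipsilateral groups came before the 6 contralateral ones. Of the 11 pairs of neighbours in that order, 8 overlapped in their values and 3 did not, and those 3 all lay between contralateral groups.

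**Figure D1:**
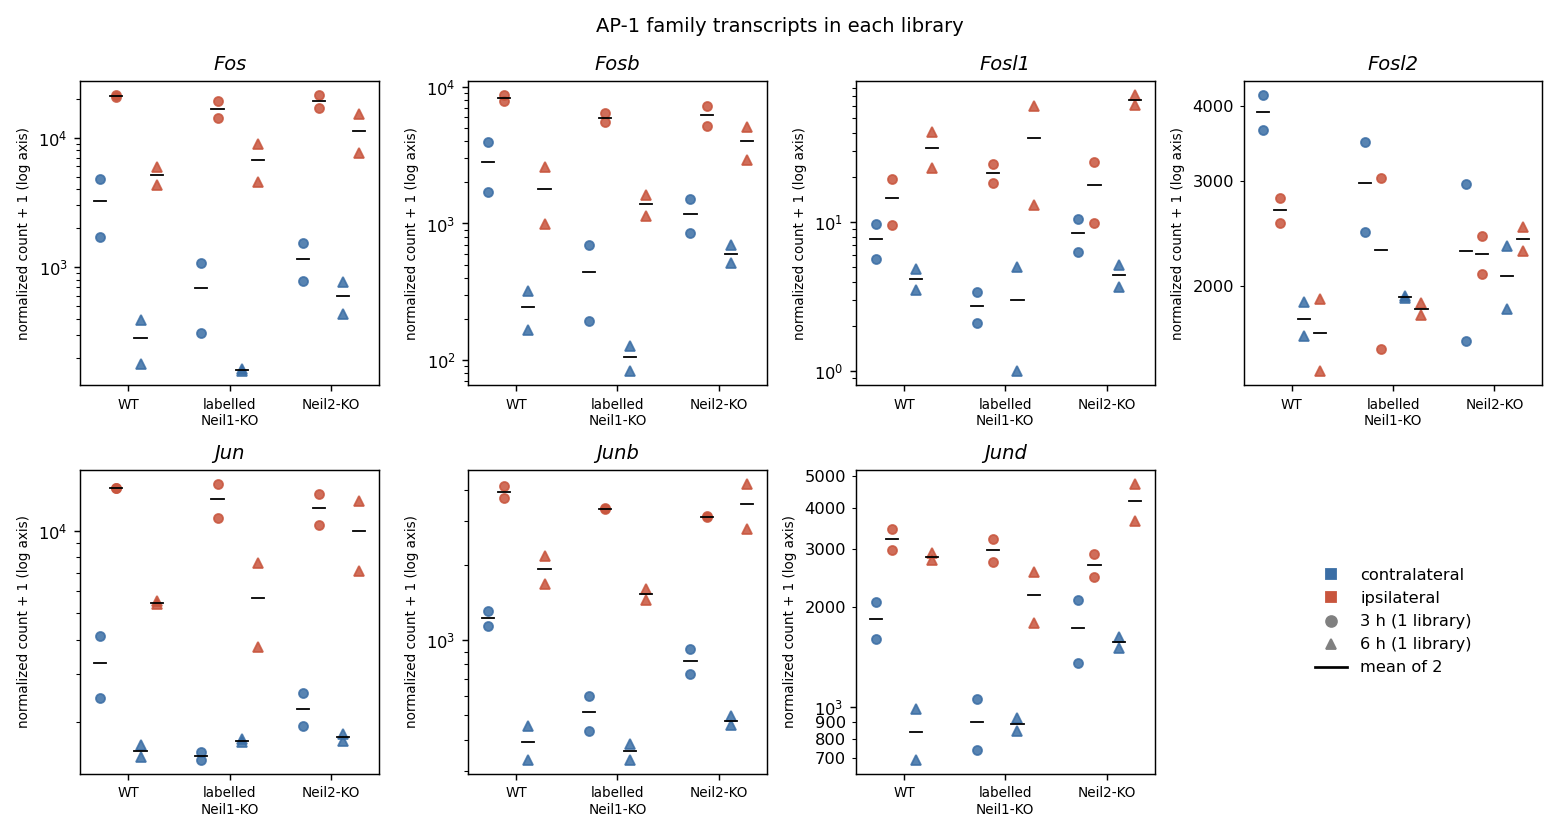
Normalized counts plus 1 of each AP-1 member (vertical log axis, with its own range per gene) in each of the 24 libraries, by genotype; blue is contralateral, red ipsilateral, circles 3 h, triangles 6 h, and bars the mean of 2. Ipsilateral Fos, Jun, Junb and Jund lie above contralateral in every genotype at the same time, Fosl1 stays below 100, and the Fosl2 points of the sides are mixed.

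The sides were compared with limma, in 1 fit over the 12 groups with p-values adjusted over all genes by the Benjamini-Hochberg method, and a member is called when its adjusted p is under 0.05. In WT at 3 h, 3 of the 7 members were called higher on the ipsilateral side (Fos, Jun and Junb), where 2.49% of all genes tested were called higher. The log2 fold change was 2.87 ± 0.56 for Fos (SE, n = 2 libraries per side, limma adjusted p = 0.00614), 2.17 ± 0.29 for Jun (0.000237) and 1.69 ± 0.20 for Junb (5.39e-05). Fosb (1.68 ± 0.54, limma adjusted p = 0.0885) and Jund (0.81 ± 0.23, limma adjusted p = 0.0504) were not called, although both of their ipsilateral libraries lay above both contralateral ones, as held for 28% of all genes. With the animal as a block, Jund was called in WT at 3 h (adjusted p = 0.0195). The Fos call at 3 h in WT was lost without WT contralateral 3 h replicate 2 (log2 fold change 2.12, adjusted p = 0.154) and without WT ipsilateral 3 h replicate 1 (2.86, adjusted p = 0.053) or replicate 2 (2.89, adjusted p = 0.0756). In such fits the remaining library of a group is assumed to vary like the other groups.

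At 6 h in WT all members but Fosl2 were called higher, 6 of 7 against 10.4% of all genes. Fos was higher by 4.27 ± 0.56, Fosl1 by 2.89 ± 0.74, Fosb by 2.81 ± 0.54, Junb by 2.30 ± 0.20, Jun by 1.80 ± 0.29 and Jund by 1.79 ± 0.23 (log2, SE, n = 2 libraries per side), with limma adjusted p-values from 1.18e-06 for Junb to 0.0108 for Fosl1. The Fosl1 call did not hold without WT contralateral 6 h replicate 2 (adjusted p = 0.0883) or WT ipsilateral 6 h replicate 1 (adjusted p = 0.0695). The other 5 calls held without each library in turn.

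In the libraries labelled Neil1-KO the same 6 members were called higher at both times, against 7.2% of all genes at 3 h and 17.6% at 6 h. The log2 difference at 3 h and 6 h was 4.84 and 5.32 for Fos, 4.02 and 3.73 for Fosb, 3.09 and 1.64 for Jun, 2.73 and 2.10 for Junb, and 1.74 and 1.27 for Jund. The Fosl1 call at 3 h (2.99 ± 0.74, limma adjusted p = 0.0106) was lost without labelled Neil1-KO contralateral 3 h replicate 2 (adjusted p = 0.0954), that at 6 h (3.66 ± 0.74, limma adjusted p = 0.00092) in a fit of the compared groups alone (0.0706), and Fosl2 at 3 h, uncalled with all libraries, was called lower without ipsilateral replicate 2 of that group (-0.89, adjusted p = 0.0311). In Neil2-KO, 4 of 7 members were called higher at 3 h (Fos 4.13, Fosb 2.44, Jun 2.42 and Junb 1.93 on the log2 scale, against 4.29% of all genes) and 6 of 7 at 6 h (Fos 4.22, Fosl1 3.93, Junb 2.86, Fosb 2.70, Jun 2.44 and Jund 1.41, against 12.2%). Fosb at 3 h in Neil2-KO lost its call without contralateral replicate 1 (adjusted p = 0.117) or either ipsilateral replicate (adjusted p = 0.0687 and 0.0586). Jund at 3 h in Neil2-KO (0.66 ± 0.23, limma adjusted p = 0.0764) was called with the animal as a block (adjusted p = 0.0291) and without contralateral replicate 2 (adjusted p = 0.0389). No member was called lower in any of the 6 comparisons of the sides.

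**Figure D2:**
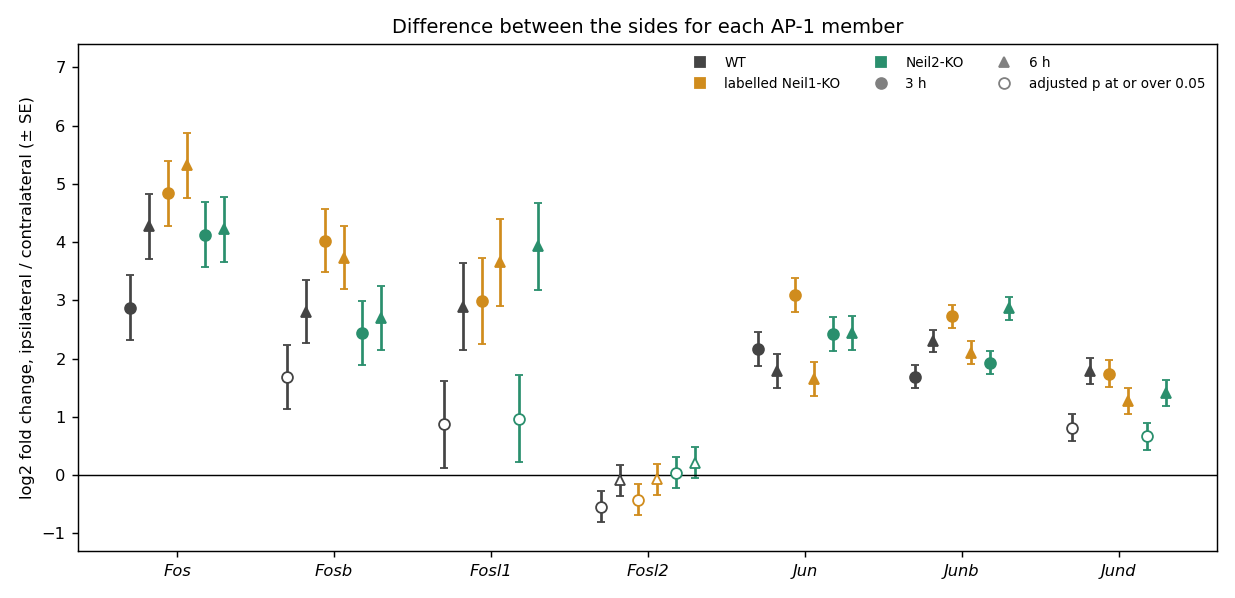
Log2 fold change of ipsilateral over contralateral (vertical axis, limma estimate ± SE, n = 2 libraries per side) for each AP-1 member by genotype (colour) and time (circle 3 h, triangle 6 h); open symbols have an adjusted p at or over 0.05. Fos lies between 2.87 and 5.32 in all 6 comparisons, and Fosl2 between -0.54 and 0.21.

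Within animals 5 members were higher on the ipsilateral side throughout. The ipsilateral to contralateral ratio of Fos was above 1 in 12 of 12 animals, from 4.41 to 57.8 with a median of 18.9. It was also above 1 in 12 of 12 animals for Fosb (2.22 to 33.4, median 7.68), Junb (2.85 to 8.60, median 4.33), Jun (2.22 to 9.49, median 4.27) and Jund (1.38 to 4.02, median 2.60). The share of all genes higher ipsilaterally in every animal was not counted. Among all 18364 genes ranked by log2 fold change, Fos took rank 48 in WT at 3 h, 21 in WT at 6 h, 11 and 15 in labelled Neil1-KO at 3 h and 6 h, and 16 and 39 in Neil2-KO.

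The other Fos genes behaved differently from one another. Fosb, the nearest relative of Fos, had ipsilateral values at 3 h of 8762 and 7907 in WT, 5520 and 6417 in labelled Neil1-KO, and 7274 and 5187 in Neil2-KO. Contralateral Fosb at 3 h was 3940 and 1704 in WT, 695 and 192 in labelled Neil1-KO, and 845 and 1517 in Neil2-KO. Contralateral Fosb in WT at 3 h was thus above every contralateral library of the knockouts at that time. How often that held among all genes was not counted. Limma called this Fosb difference at 3 h in neither knockout, and DESeq2 called it under the Neil1-KO label only. At 6 h Fosb lay between 81.7 and 689 contralaterally (median 243, 6 libraries) and between 999 and 5110 ipsilaterally (median 2116, 6 libraries), with no overlap.

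Fosl1, which encodes Fra-1, was rare, and its values rest on few reads. It had 1 to 9 reads per contralateral library at 3 h and 0 to 4 at 6 h, against 9 to 26 ipsilaterally at 3 h and 13 to 80 at 6 h. Its fitted fold changes depend on the pseudocount, so pooled reads are given. At 3 h the ratio of pooled ipsilateral to contralateral reads, scaled for depth, was 1.92 in WT (25 against 12 reads, 95% counting interval 0.931 to 4.20), 10.8 in labelled Neil1-KO (41 against 4 reads, 3.92 to 41.6) and 2.13 in Neil2-KO (38 against 14 reads, 1.13 to 4.26). At 6 h the pooled Fosl1 ratio was 9.33 in WT (71 against 6 reads, 4.08 to 26.3), 16.7 in labelled Neil1-KO (81 against 4 reads, 6.26 to 62.6) and 18.4 in Neil2-KO (149 against 6 reads, 8.26 to 51.0). The intervals of the times did not touch in Neil2-KO and overlapped in the other genotypes, and they cover counting error only. Across animals Fosl1 was higher ipsilaterally in 11 of 12, and in WT at 3 h replicate 1 the ratio was 0.972.

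Fosl2, which encodes Fra-2, was the member that was not called between the sides in any of the 6 comparisons. Contralateral Fosl2 at 3 h was 4167 and 3641 normalized counts in WT, 3473 and 2460 in labelled Neil1-KO, and 1623 and 2955 in Neil2-KO. Ipsilateral Fosl2 at 3 h was 2802 and 2550 in WT, 1575 and 3029 in labelled Neil1-KO, and 2093 and 2427 in Neil2-KO. In WT at 3 h both contralateral libraries lay above both ipsilateral ones, and in the knockouts the sides overlapped. The share of all genes lower ipsilaterally in this way was not counted. The log2 difference in WT at 3 h was -0.54 ± 0.27 (SE, n = 2 libraries per side, limma adjusted p = 0.287), which passed the threshold in a fit of these 2 groups alone (adjusted p = 0.0139). At 6 h Fosl2 lay between 1650 and 2337 contralaterally and between 1444 and 2509 ipsilaterally. It was higher ipsilaterally in 5 animals and lower in 7, with ratios from 0.454 to 1.29.

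The Jun genes moved with Fos but by less. Jun, the partner that pairs with every Fos protein, had ipsilateral values at 3 h of 14247 and 14250 in WT, 14829 and 11146 in labelled Neil1-KO, and 13570 and 10498 in Neil2-KO. Contralateral Jun at 3 h was 4132 and 2443 in WT, 1562 and 1459 in labelled Neil1-KO, and 1934 and 2554 in Neil2-KO. At 6 h contralateral Jun lay between 1494 and 1811 in all 6 libraries, and ipsilateral Jun between 3769 and 12810. Junb, which often opposes Jun at AP-1 sites, lay between 431 and 1309 contralaterally at 3 h and between 3112 and 4167 ipsilaterally. At 6 h Junb lay between 331 and 494 contralaterally and between 1453 and 4251 ipsilaterally, the highest of these in Neil2-KO (4251 and 2805). Jund lay between 741 and 2107 contralaterally at 3 h and between 2469 and 3448 ipsilaterally, and at 6 h between 690 and 1627 and between 1790 and 4734. The sides did not overlap for Jun, Junb or Jund at either time, over all 3 genotypes. The share of all genes with no such overlap was not counted, here or for Fos and Fosb above.

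Within the same RNA, the summed levels of some cell type markers differed between the sides as well. Over the 6 comparisons of the sides 2.49% to 17.6% of all genes were called higher and 1.79% to 21.4% lower. A count of 1 of 5 markers is near the highest of these shares. The summed level of the neuron markers Rbfox3, Snap25, Syt1, Map2 and Nefl was 72764 to 84226 normalized counts contralaterally and 31101 to 68518 ipsilaterally, and of the 5 the number called lower was 0 in WT at 3 h, 1 in WT at 6 h, 2 and 5 in labelled Neil1-KO at 3 h and 6 h, and 1 and 4 in Neil2-KO. The endothelial markers Cldn5, Pecam1, Flt1, Cdh5 and Tek summed to 2993 to 4105 contralaterally and 4958 to 11520 ipsilaterally, with 1 to 4 of 5 called higher. Astrocyte markers summed to 34604 to 40337 contralaterally and 29161 to 67043 ipsilaterally, with 0 to 3 of 5 called higher and 0 or 1 lower. Oligodendrocyte lineage markers summed to 8161 to 31871 and 6453 to 19993, with 0 or 1 of 5 called in each direction. Thalamus markers, from the tissue that adjoins the hippocampus, overlapped between the sides at 3 h. At 6 h their sum was 1257 to 1550 contralaterally and 1627 to 2426 ipsilaterally, with 1 or 2 of 5 called higher. These ranges did not overlap, and how often that held among all genes was not counted. Microglia markers summed to 2110 to 3034 contralaterally and 1463 to 4613 ipsilaterally, with 0 called higher and 0 to 2 of 5 lower. Markers of blood leukocytes were low in every library (sum 106 to 341 over 4 genes, most of it Ly6c2, with S100a9 at a mean of 17.0 or less in every group). Choroid plexus markers, chiefly Ttr, ranged from 187 to 36736, and at 3 h the sides overlapped in each genotype. At 6 h they did not. In WT the sum was then 31576 and 28723 contralaterally against 468 and 370 ipsilaterally. In Neil2-KO it was 29759 and 1149 contralaterally against 977 and 669 ipsilaterally. Labelled Neil1-KO went the other way, with 367 and 307 contralaterally against 11793 and 20586 ipsilaterally. Labelled Neil1-KO ipsilateral 6 h replicate 2 held the lowest neuron sum and the highest astrocyte, endothelial, microglia and leukocyte sums. The next lowest neuron sum was 45484 and the next highest endothelial sum 7220, both ipsilateral. In bulk tissue, fewer cells of a type and less RNA per cell cannot be told apart. The part of cell composition or of neighbouring tissue in the AP-1 differences was not tested.

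Time after the insult was compared on each side as the mean over the 3 genotypes. On the contralateral side 3 of 7 members were lower at 6 h than at 3 h, where 0.218% of all genes were called lower: Fos by -2.07 (limma adjusted p = 0.0100), Fosb by -2.09 (0.0100) and Junb by -0.98 (0.00082), on the log2 scale. Fosl2 (-0.61, limma adjusted p = 0.103), Jund (-0.42, 0.195), Jun (-0.39, 0.349) and Fosl1 (-0.67, 0.545) were not called, though Fosl2 was called by DESeq2 (adjusted p = 0.00591). Without WT contralateral 6 h replicate 2, Junb alone was called, and Fos (adjusted p = 0.0609) and Fosb (adjusted p = 0.0535) were not; Fos was also lost without labelled Neil1-KO contralateral 3 h replicate 1 (adjusted p = 0.0512). Within WT the contralateral decrease was -3.45 for Fos, -3.49 for Fosb, -1.66 for Junb and -1.15 for Jund, 4 members against 0.169% of all genes called lower. The 4 WT calls were all lost without WT contralateral 3 h replicate 1 (adjusted p from 0.0722 to 0.236) and without WT contralateral 6 h replicate 2 (adjusted p from 0.0980 to 0.583). That of Jund was also lost without WT contralateral 6 h replicate 1 (adjusted p = 0.0961) or WT contralateral 3 h replicate 2 (0.0596) and in edgeR (0.0613), while DESeq2 called 6 members, all but Fosl1.

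On the ipsilateral side 4 of 7 members were lower at 6 h, against 7.52% of all genes called lower: Fosb by -1.72 (limma adjusted p = 0.00271), Fos by -1.42 (0.00904), Jun by -0.99 (0.00185) and Junb by -0.68 (0.00171). These 4 calls held without each library in turn. Jund (-0.00, limma adjusted p = 0.991) was not called, and Fosl1 was the member with a positive estimate (1.21, limma adjusted p = 0.0728). Fosl1 was called higher without labelled Neil1-KO ipsilateral 6 h replicate 2 (1.58, adjusted p = 0.0206) or Neil2-KO ipsilateral 3 h replicate 2 (1.44, adjusted p = 0.047), and by edgeR (adjusted p = 0.0195) and DESeq2 (0.0139). Fosl2 (-0.28, limma adjusted p = 0.241) was called lower without labelled Neil1-KO ipsilateral 3 h replicate 1 (adjusted p = 0.0414).

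Single genotypes gave fewer calls over time on the ipsilateral side. In WT Junb was called lower (-1.04, limma adjusted p = 0.0445), 1 member against 0.098% of all genes, and that call was lost in each of the 4 fits that left out a WT ipsilateral library (adjusted p from 0.0514 to 0.367). In that comparison edgeR called 1 member as well, and DESeq2 called 4 (Fos, Fosb, Jun and Junb). In labelled Neil1-KO Fosb (-2.13, limma adjusted p = 0.0461), Jun (-1.26, 0.0374) and Junb (-1.14, 0.0207) were called lower, 3 members against 1.25% of all genes. In fits of the 2 compared groups alone neither the WT call of Junb (adjusted p = 0.148) nor those of Fosb (0.121), Jun (0.445) and Junb (0.218) under the Neil1-KO label held, and Fosb also missed the threshold without the filter on low values (0.0511). Each of the 3 under the Neil1-KO label lost its call in at least 2 of the 4 fits without 1 library of those groups, and Jun had -0.76 (adjusted p = 0.0746) without labelled Neil1-KO ipsilateral 6 h replicate 1. In Neil2-KO the ipsilateral estimates were -0.84 for Fos, -0.67 for Fosb, -0.32 for Jun and 0.14 for Junb, and limma called 0 of 7 members (2 at an unadjusted p under 0.05, Fosl1 and Jund, both with a higher mean at 6 h, and 0 by edgeR or DESeq2), as it did 0 of all genes (0%).

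Whether the difference between the sides itself changed from 3 h to 6 h was tested as an interaction, averaged over the genotypes. Limma called 0 of 7 members, where 1.9% of all genes were called, 3 members had an unadjusted p under 0.05, and edgeR and DESeq2 also called 0. The largest of these estimates was that of Fosl1 (1.88, limma adjusted p = 0.117), which was called with the animal as a block (adjusted p = 0.0438). Jun had a negative estimate (-0.60, limma adjusted p = 0.206), since ipsilateral Jun decreased with time and contralateral Jun by less. Without labelled Neil1-KO ipsilateral 6 h replicate 2, the library that stood apart, Fosl1 (2.25, adjusted p = 0.0382) and Jun (-0.77, adjusted p = 0.0471) were both called.

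The mix of AP-1 transcripts was compared per kilobase of exon, since reads rise with transcript length. Lengths were unions of the annotated exons in GENCODE M21 (GRCm38), from 1668 bases for Jund to 9680 bases for Fosl2, and each member's share is that of the summed level per kilobase of the 7. Contralaterally at 6 h Jund (31.8% to 43.1%, median 35.2%, 6 libraries) and Jun (23.3% to 36.9%, median 32.3%) made up most of the family, and Fos 4.49% to 13.3%. Ipsilaterally at 3 h Fos led with 43.2% to 51.8% (median 47.9%) and Jund had 8.42% to 11.8%, and neither range overlapped that of contralateral 6 h. Nor did either overlap that of contralateral 3 h, which was 8.75% to 33.0% for Fos and 20.0% to 34.5% for Jund. Ipsilateral shares at 6 h were 28.4% to 45.7% for Fos and 12.8% to 26.7% for Jund. Those ranges were apart from contralateral 6 h but overlapped contralateral 3 h. On the ipsilateral side the Jun share stayed in a similar range over time, 22.3% to 27.0% at 3 h and 20.6% to 28.5% at 6 h. At 6 h it was higher contralaterally, without overlap, in WT (30.2% to 36.1%) and labelled Neil1-KO (34.5% to 36.9%). In Neil2-KO the Jun shares of the sides overlapped at 6 h. Fosl2 made up 6.92% to 16.9% of the family contralaterally at 3 h and 0.943% to 2.24% ipsilaterally, while its level per kilobase was 168 to 430.5 and 163 to 313. The summed family level per kilobase was 1507 to 6225 contralaterally and 13990 to 18730 ipsilaterally at 3 h, and 1299 to 2437 and 5737 to 16250 at 6 h.

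**Figure D3:**
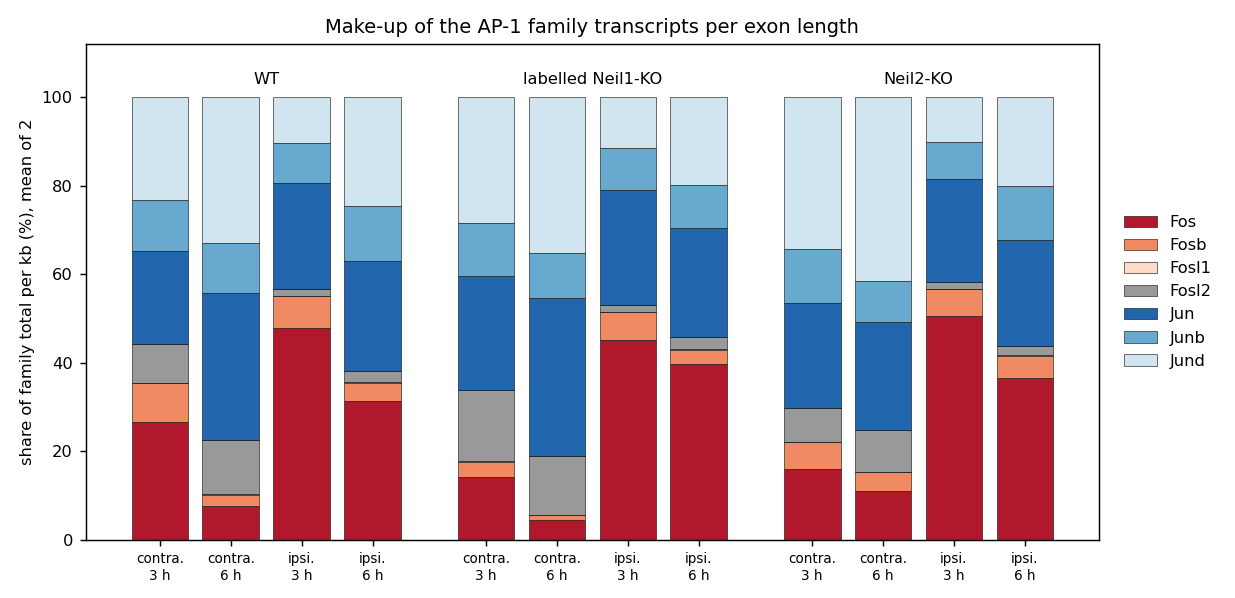
Share of each AP-1 member in the family total per kilobase of exon (vertical axis, percent, mean of 2 libraries) for each genotype, side and time. Fos takes 45.2% to 50.5% in the ipsilateral groups at 3 h and 4.50% to 11.1% in the contralateral groups at 6 h.

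The knockouts were compared with WT, which serves as the control of both comparisons. Averaged over the times, limma called 0 of 7 members for labelled Neil1-KO against WT on the contralateral side, where 0.103% of all genes were called, although 6 members had an unadjusted p under 0.05, all with lower means in labelled Neil1-KO. Fosb (-1.999 ± 0.384, SE, limma adjusted p = 0.057) and Junb (-0.69 ± 0.14, 0.0733) were closest to the threshold, and Fos had -1.52 ± 0.39 (limma adjusted p = 0.241). DESeq2 called Fosb and Junb, and edgeR called 0. Xist was high in no WT animal and in replicate 2 of labelled Neil1-KO at both times, and with a term for such animals the Fosb difference was -1.75 (adjusted p = 0.243). Fosb was called without WT contralateral 3 h replicate 2 (adjusted p = 0.0253), Junb without WT contralateral 6 h replicate 2 (adjusted p = 0.0481), and both without labelled Neil1-KO contralateral 3 h replicate 1 (adjusted p = 0.00542 and 0.0320).

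At 3 h alone, contralateral Junb was called lower in labelled Neil1-KO, at 597 and 431 normalized counts against 1309 and 1142 in WT (log2 fold change -1.27 ± 0.20, SE, n = 2 libraries per group, limma adjusted p = 0.0093), 1 of 7 members against 0.0708% of all genes called lower. There edgeR also called 1 member, and DESeq2 called 5 (Fos, Fosb, Jun, Junb and Jund). The Junb call was lost without WT contralateral 3 h replicate 1 (adjusted p = 0.192) or labelled Neil1-KO contralateral 3 h replicate 2 (adjusted p = 0.318). Fosb (-2.82, limma adjusted p = 0.0531) was called without WT contralateral 3 h replicate 2 (adjusted p = 0.0305) and without labelled Neil1-KO contralateral 3 h replicate 1 (adjusted p = 0.0214). All 7 members were lower in both labelled Neil1-KO libraries than in both WT libraries of that side and time, as 23.8% of all genes were. Contralateral Junb at 6 h, by contrast, was 384 and 331 in labelled Neil1-KO and 453 and 331 in WT. The test of whether the contralateral change with time differed between labelled Neil1-KO and WT called 0 of 7 members and 0% of all genes in limma, with Junb at 1.15 (adjusted p = 0.833) and 4 members at an unadjusted p under 0.05.

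For the other comparisons of genotypes, limma called 0 of 7 members on the ipsilateral side of labelled Neil1-KO (0 at an unadjusted p under 0.05, where 9.31% of all genes were called), 0 on the contralateral side of Neil2-KO (1 at an unadjusted p under 0.05, Jund; 0.0817% of all genes) and 0 on its ipsilateral side (0 at an unadjusted p under 0.05; 0.109%), and edgeR and DESeq2 also called 0. On the contralateral side of Neil2-KO at 3 h alone limma, edgeR and DESeq2 called 0 of 7 members and 4 had an unadjusted p under 0.05 (Fos, Fosb, Fosl2 and Junb, all with lower means than in WT), where 0.0109% of all genes were called by limma. At 6 h limma called 0 and 2 had an unadjusted p under 0.05 (Fosb and Jund, both with higher means than in WT), against 0.0163%. The test of whether the contralateral change with time differed between Neil2-KO and WT called 0 of 7 members and 0% of all genes, with 5 at an unadjusted p under 0.05 and each of these at an adjusted p of 0.988. Ipsilateral Fos was 16700 ± 3529 in labelled Neil1-KO, 19242 ± 3098 in Neil2-KO and 21036 ± 331 in WT at 3 h (SD, n = 2 each). At 6 h ipsilateral Fos was 6774 ± 3173, 11360 ± 5359 and 5142 ± 1189 in the same order. Both Neil2-KO ipsilateral libraries at 6 h were above both WT libraries for all 7 members, as they were for 18.6% of all genes, with log2 differences from 0.53 for Fosl2 to 1.26 for Fosb, and none was called by limma (4 at an unadjusted p under 0.05; Junb 0.85, adjusted p = 0.128; 0.0327% of all genes called in either direction). DESeq2 called Junb there and edgeR 0. The difference between the sides was not called to differ from WT in either knockout, in limma, edgeR or DESeq2, for any member or any gene in limma (0%), with 3 members at an unadjusted p under 0.05 under the Neil1-KO label and 0 in Neil2-KO.

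Partners that share the leucine zipper were examined next, as a list of 13 genes of which 12 were tested. Between 4 and 7 of the 12 were called higher ipsilaterally in the 6 comparisons of the sides and 0 to 2 lower. Of all genes 2.49% to 17.6% were called higher in these comparisons and 1.79% to 21.4% lower. The list's median log2 fold change was 0.53 to 1.4, against -0.01 to 0.02 for all genes. Atf3, a stress-induced repressor and partner of Jun, rose by 4.55 in WT at 3 h, 6.99 in WT at 6 h, 7.41 and 6.91 in labelled Neil1-KO at 3 h and 6 h, and 5.97 and 6.33 in Neil2-KO (log2). The small Maf genes Maff (2.84 to 5.49) and Mafk (1.17 to 2.14) rose in all 6 comparisons, with and without each library. Atf4, the effector of the integrated stress response, rose in all 6 (0.79 to 1.55). Jdp2, which represses AP-1 sites, rose in 5 of 6 (1.02 to 1.69), with 0.55 in Neil2-KO at 3 h. In WT at 3 h the 5 called partners became 2 without WT contralateral 3 h replicate 2, where Atf3 had 3.03 (adjusted p = 0.0752), Jdp2 0.92 (0.104) and Atf4 0.56 (0.381). They became 3 without either WT ipsilateral 3 h library, where Jdp2 (adjusted p = 0.0585 and 0.0654) and Atf4 (0.143 and 0.28) were lost. Atf4 in Neil2-KO at 3 h was lost without contralateral replicate 1 (adjusted p = 0.0882) or ipsilateral replicate 2 (0.126), and in Neil2-KO at 6 h the 8 partners called in either direction became 5 without ipsilateral replicate 1.

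Of 12 genes for the kinases above AP-1, those of the ERK, JNK and p38 cascades, 0 were called higher in any of the 6 comparisons with all libraries in the fit. In WT 0 were lower at 3 h and 3 at 6 h, where 1.79% and 10.3% of all genes were called lower. In labelled Neil1-KO 5 and 9 were lower at 3 h and 6 h (9.85% and 21.4% of all genes), and in Neil2-KO 0 and 4 (4.95% and 12.6%). Map2k4, which phosphorylates JNK, was lower at 6 h by -0.62 in WT, -0.92 under the Neil1-KO label and -0.74 in Neil2-KO. Mapk10, which encodes the neuronal JNK3, was lower by -0.51, -0.97 and -0.64 in the same order. The neuron markers above were lower on the same side, by a median of -0.32, -0.95 and -0.76 in these comparisons, and the part of neuron content in the kinase differences was not tested. In WT at 6 h the kinase calls rested on single libraries: without WT contralateral 6 h replicate 1 or 2 only Map2k4 was called lower, and without WT ipsilateral 6 h replicate 2 none was (Map2k4 -0.51, adjusted p = 0.0643). In labelled Neil1-KO the 5 calls at 3 h became 3 or 2 when contralateral replicate 1 or 2 was left out and 1 when ipsilateral replicate 1 was, and the 9 at 6 h became 5 without ipsilateral replicate 2. In Neil2-KO at 6 h the 4 became 2 without ipsilateral replicate 1, where Mapk10 had -0.58 (adjusted p = 0.0638). With no other groups fitted, 3 kinases were called in WT and 5 in Neil2-KO at 3 h, but 2 and 3 in labelled Neil1-KO at 3 h and 6 h.

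The regulators of Fos transcription were mixed. Of 10 genes for serum response factor, its cofactors and the CREB group, 0 to 3 were called higher and 2 to 5 lower, where 2.49% to 17.6% of all genes were called higher and 1.79% to 21.4% lower over the 6 comparisons of the sides. Srf, the serum response factor gene, rose in WT at 6 h (0.98), labelled Neil1-KO at 3 h (1.20) and Neil2-KO at 6 h (1.30), with and without each library, and had 0.14 in labelled Neil1-KO at 6 h. Mrtfb, which encodes a cofactor of that factor, was called lower in all 6 comparisons (-0.77 to -1.35). The Mrtfb call in WT was lost at 3 h without contralateral replicate 2 (adjusted p = 0.0852) or ipsilateral replicate 2 (0.154), and at 6 h without contralateral replicate 2 (0.0555) or ipsilateral replicate 1 (0.0677). The counts themselves moved with single libraries, down to 0 in WT at 3 h without contralateral replicate 2 or ipsilateral replicate 2, to 1 in WT at 6 h without contralateral replicate 2, to 2 in labelled Neil1-KO at 3 h without contralateral replicate 2 or ipsilateral replicate 1, and to 1 in Neil2-KO at 3 h without ipsilateral replicate 2.

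A list of 18 tested genes with known AP-1 sites or AP-1-dependent induction had 7 to 12 members called higher and 0 to 2 lower, against the same 2.49% to 17.6% and 1.79% to 21.4% of all genes, with a median log2 fold change of 0.61 to 1.66. Hmox1, the heme-degrading enzyme (2.38 to 3.06), Plau, the urokinase protease (2.94 to 3.28), and Plaur, its receptor (2.73 to 4.19), rose in all 6 comparisons, with and without each library. Tgfb1, which encodes a growth factor, rose at 6 h by 1.65 in WT, 1.60 under the Neil1-KO label and 1.72 in Neil2-KO, and Ccnd1, the cyclin D1 gene, by 1.25, 1.67 and 1.39. Mmp12, a macrophage metalloprotease, was called at 6 h in each genotype (3.79 to 4.89) and at 3 h in none (1.69 to 2.01). Penk, Npy, Gal and Mmp9, which are also described as AP-1 targets, were not called in any of the 6 and lay between -0.52 and 0.43. Without WT contralateral 3 h replicate 2, 4 targets were called in WT at 3 h in place of 7, and without Neil2-KO contralateral 3 h replicate 1 or ipsilateral 3 h replicate 2, 4 in place of 9 in Neil2-KO at 3 h.

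**Figure D4:**
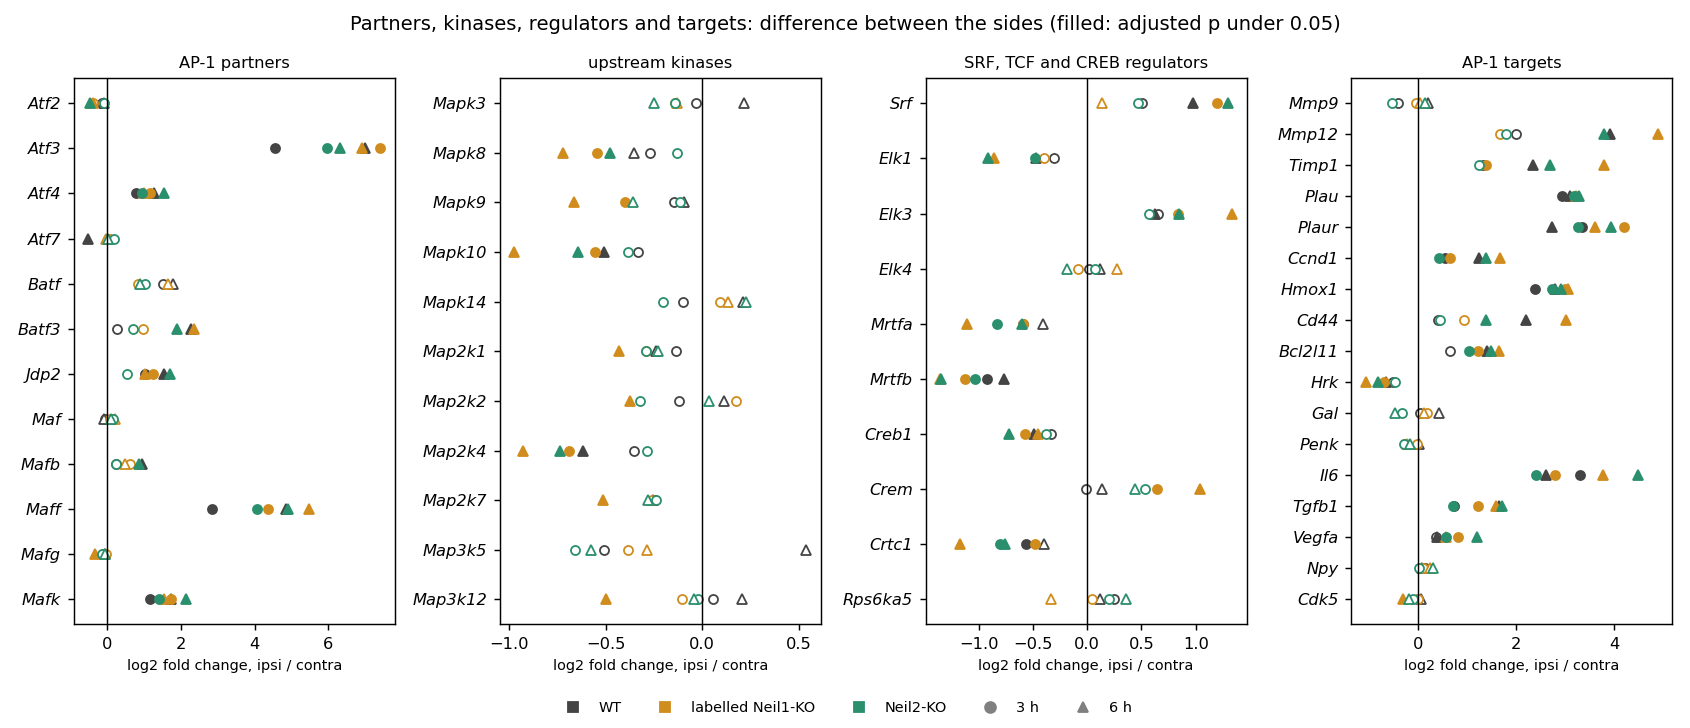
Log2 fold change of ipsilateral over contralateral (horizontal axis of each panel, with its own range) for the tested genes of the 4 lists whose values are reported here, by genotype (colour) and time (circle 3 h, triangle 6 h); filled symbols have an adjusted p under 0.05. Atf3 and Maff reach the highest values among the partners, no filled kinase lies right of 0, and Penk, Npy, Gal and Mmp9 are open throughout.

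Across the 24 libraries the members differed in how closely they followed Fos. On the log2 scale Pearson's r was 0.975 between Fos and Junb, 0.960 between Fos and Fosb, 0.954 between Fos and Jun and 0.908 between Fos and Jund. For Fosl1 r was 0.769 with Fos, 0.706 with Fosb, 0.709 with Jun, 0.805 with Junb and 0.877 with Jund. Fosl2 had r between -0.04 and 0.35 with the other 6. These correlations are descriptions over libraries that share sides, animals and the same response to the insult. The genes most like each member were sought among 12896 genes with a mean of at least 50. Csrnp1, which encodes a nuclear protein, was nearest to Fos (r = 0.983) and Junb (0.984), Egr1, an immediate early zinc finger factor, to Jun (0.987), Arid5a to Fosb (0.953), Cebpb, a leucine zipper factor of another family, to Jund (0.956) and Alkbh5 to Fosl1 (0.944). The nearest genes to Fosl2 were less close, Zdbf2 (0.821) and the orphan receptor gene Nr4a2 (0.796).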

How the data were processed

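Hippocampal total RNA of 24 libraries was measured, at the depth given above. The deposited signal per gene and library is a read count divided by a DESeq2 size factor, and the tools named are DESeq2, featureCounts, HISAT2, SAMtools and Trim Galore with build GRCm39 (mm39), per the submitters' processing notes. Versions, settings and strand use: not given in the sources used here, so reads of overlapping antisense genes cannot be told apart. All values (100%, tolerance 1e-06) were whole multiples of the value of 1 read, so whole reads were recovered for the count tests. Of 33084 lines, 10770 (32.55%) carried no gene name and stayed out, with 8.407% to 12.48% of the reads. No 2 libraries were identical.

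Genes with a value of at least 10 in at least 2 libraries (18364) were tested as log2(value + 1) with limma 3.58.1 in R 4.3.3, a mean for each of 12 groups and 12 residual degrees of freedom, two-sided, with Benjamini-Hochberg adjustment over all genes tested. Fold changes are on that log2(value + 1) scale. Alternatives were a pseudocount of 5, no filter, edgeR 4.0.16, DESeq2 1.42.0, only the compared groups, a block, a term for animals with high Xist, and leaving out each library. Leaving out the outlying library where it was not compared was chosen after seeing the data. The sides were blocked by animal, on the reading that both sides came from each replicate. Deviations from the group means correlated between the sides of the same number at 0.271 and 0.155 under the Neil1-KO label. Elsewhere they correlated between -0.00576 and 0.0537, so these correlations give little sign of that pairing outside that label. Xist was high on both sides or on neither for each replicate number. In Neil2-KO at 6 h it was 7604 contralaterally and 10112 ipsilaterally in replicate 2, against 5.25 and 11.3 in replicate 1. Genotypes and times were also blocked by replicate number, which the labels tie to nothing shared, so no result rests on that block. The test was also run on simulated data, with independent libraries and changes set in WT ipsilateral 3 h only. Those data hold no pairing by animal and no outlying library, so they cannot check calls that turn on these.

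All 7 members are named in every comparison. Of each list the members called are counted, those with the smallest adjusted p (up to 4) are named (2 genes counted in the lists are not reported here by name), and others named were picked for their known role or contrast after their values were seen. Members and lists were chosen with earlier results of these data known. No label says outright that replicates are separate animals, so p-values reflect only how these libraries varied. Likeness is Pearson's r of log2 values.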

Additional observations from a re-analysis of the deposited data

How the results depend on the processing

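No alternative changed the direction of a called member. In WT at 3 h, 6 members were called between the sides in a fit of those groups alone, against 3. For labelled Neil1-KO against WT on the contralateral side, where 0 were called, 2 were called with no other groups in the fit and 2 by DESeq2. In that comparison 1 was called without the outlying library, and 1 with the replicate block (replicate number), where Fosb had an adjusted p of 0.0134. At 3 h alone that block gave 2 in place of 1, but the numbers tie no libraries across genotypes or times. For the change of the side difference with time, 1 was called with the replicate block (animal), against 0. In the other comparisons fitted with a block, the count of members moved by less than 1.5 times. By DESeq2 the members called rose from 1 to 5 for labelled Neil1-KO against WT contralaterally at 3 h, from 1 to 4 for WT ipsilateral 6 h against 3 h and from 4 to 6 for WT contralateral 6 h against 3 h. The cause was not tested.

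Leaving out each library in turn, the number called ranged from 1 to 3 for the contralateral change with time, from 0 to 2 for the change of the side difference with time and from 0 to 2 for labelled Neil1-KO against WT contralaterally. Estimates near 0 changed sign. Ipsilateral Jund over time was 0.048 with the Xist term, 0.011 in edgeR and 0.0061 in DESeq2, and -0.089 to 0.083 without single libraries. Fosl2 between the sides in Neil2-KO at 3 h was -0.0094 in DESeq2 and -0.39 to 0.47 without single libraries. Without single libraries Fosl2 also ranged from -0.29 to 0.11 in WT at 6 h and from -0.89 to 0.051 in labelled Neil1-KO at 3 h. In Neil2-KO the ipsilateral change with time ranged from -0.75 to 0.10 for Jun and from -0.16 to 0.44 for Junb. Fosl1 rests on 0 to 9 contralateral reads per library, so small changes of it were not detectable at this depth.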
